A study of Mus musculus with 24 samples.

Results

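The comparison of skeletal muscle RNA between mice of the omega-3 lineage and mice of the control lineage, both on a high fat diet, rested on 16 of the 24 arrays of the series. All 8 arrays labelled HFD_O3 (high fat diet, omega-3 lineage) were set against all 8 labelled HFD_Cont (high fat diet, control lineage). The high fat diet was common to both groups, so the groups differed by the lineage. The remaining 8 arrays, STD_Cont, came from control lineage mice on the low fat diet. They entered only as levels for orientation, in the shared estimate of the spread and in the filter that kept detected probes. The sources used here do not give the strain, genotype, sex or age of the mice, the length of the diets, the muscle that was taken, or what distinguishes the omega-3 lineage. Each array carried the RNA of 1 sample, labelled with the dye Cy3 and hybridised alone. The design text names 8 mice per group, and nothing in the labels says more about how the samples were taken.

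The question was which transcripts of muscle differ with the lineage when the diet is the same. Omega-3 fatty acids are polyunsaturated fatty acids that are built into membranes, are made from shorter dietary precursors by desaturases and elongases, and serve as ligands and precursors of signalling lipids. In muscle they are known as weak activators of the PPAR nuclear receptors, which switch on genes for fatty acid uptake and oxidation. Muscle RNA also carries rapidly induced transcripts of handling, exercise, feeding and stress hormones, such as the immediate early genes and heat shock genes, whose levels move within minutes to hours.

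Values are log2 processed intensity relative to the 75th percentile of the same array, so a log2 level of 0 is the level of that percentile, and levels of different probes are not comparable with each other. A difference is HFD_O3 minus HFD_Cont on this log2 scale, with the standard error of limma's moderated fit. The share of spots that the scanner software marked as well above background was 55.3% ± 2.89 (SD, n = 8) in HFD_O3 and 55.7% ± 2.17 (SD, n = 8) in HFD_Cont. The 75th percentile signal was 213 ± 48.0 (SD, n = 8) and 216 ± 32.6 (SD, n = 8). Exact permutation tests of these measures and of 3 principal component scores gave p-values of 0.0738 to 0.929, two-sided, and at least 0.344 after Benjamini-Hochberg adjustment over the 5 measures. The number of arrays limits the precision. Arrays HFD_O3 1 and HFD_O3 7, which earlier results of these data had singled out, had far scores on several components. Array 1 scored 32.7 on the first component and 45.0 on the second, and array 7 scored −24.7 on the second and 26.9 on the third. They were not alone at the margins, since array 3 scored −21.5 on the second component and array 4 −20.2 on the first. No HFD_O3 score exceeded Dixon's 95% critical value. These components held 17.1%, 14.9% and 11.1% of the variance of the 16 arrays. Defining markers of skeletal muscle were measured for 15 of 15 genes, with a median difference of 0.03.

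No gene passed the threshold between the lineages. Of 19938 gene names tested, 0 (0%) had an adjusted p under 0.05 by limma with Benjamini-Hochberg adjustment, and the smallest adjusted p was 0.188. At an unadjusted p under 0.05 there were 1413 names, or 7.09% of those tested. Of these, 536 (2.69%) were higher in HFD_O3 and 877 (4.4%) were lower. The split between higher and lower names moved with the scaling. It was 631 against 321 with median scaling, 673 against 790 with quantile normalization and 761 against 764 with cyclic loess. The median difference over all names was −0.01, and 95% of names lay within 0.33 of 0. For 16464 names (82.6%) the 95% confidence interval of the difference lay wholly between −0.5 and 0.5. For 19344 names (97.0%) it lay between −1 and 1, that is, within a 2-fold change either way.

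**Figure D1:**
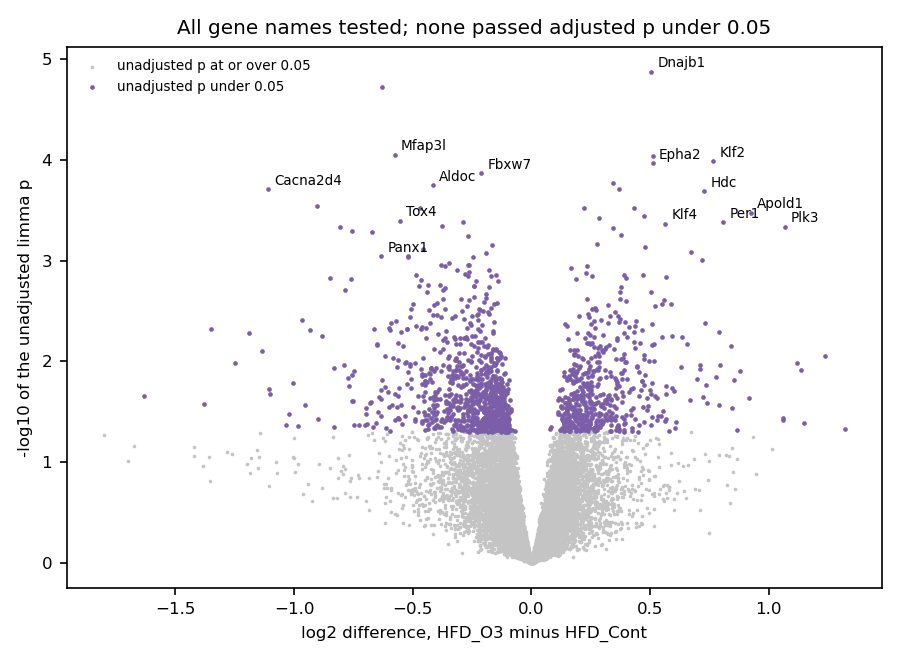
Each point is 1 of the 19938 gene names tested, with the log2 difference of HFD_O3 minus HFD_Cont on the x axis and −log10 of the unadjusted limma p on the y axis. Purple points have an unadjusted p under 0.05 (1413 names), 14 of the genes with the smallest p are labelled, and no point passed an adjusted p of 0.05.

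In 7 names (0.0351% of those tested) the 8 arrays of one group did not overlap with the 8 of the other. Trmt1l, Klf4, Trim59, Matr3 and Vsig2 were higher in every HFD_O3 array than in any HFD_Cont array. Mfap3l and Asb1 were lower in every HFD_O3 array. Trim59, Matr3, Vsig2 and Asb1 were singled out after their values were seen, and their differences were 0.67, 0.17, 0.44 and −0.22. Trim59 was well above background on 6 HFD_O3 and 2 HFD_Cont arrays, and among these groups it passed the detection filter only through HFD_O3. Its difference is therefore against mostly undetected values. Only 44 names differed by more than 1 on the log2 scale, 9 of them higher and 35 lower in HFD_O3.

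Of the 12 genes with the smallest p on the higher side, Klf2, Klf4, Klf6 and Fosl2 belong to the immediate early list, and Dnajb1 to the heat shock list. None of them passed the adjusted threshold, so each is given as values. The adjusted p of these 12 ranged from 0.188 to 0.43 by limma.

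Dnajb1 encodes an Hsp40 co-chaperone that delivers unfolded proteins to Hsp70. Its probe lies at chr8:86135660-86135719 (mm9). Its log2 level ran from 2.70 through a median of 3.04 to 3.34 in HFD_O3 and from 2.43 through 2.51 to 2.73 in HFD_Cont. The ranges overlapped only because HFD_Cont array 3, at 2.73, lay above the 2 lowest HFD_O3 arrays. The difference was 0.50 ± 0.09 (SE), a fold of 1.42, with an adjusted p of 0.188 by limma, the smallest of any named gene. It was 0.44, 0.54 and 0.57 within the 3 slides. Without HFD_O3 arrays 1 and 7 it was 0.44. The STD_Cont mean was 2.45 ± 0.18 (SD, n = 8), on the HFD_Cont side.

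Klf2 encodes a Krüppel-like transcription factor known from endothelial cells, where blood flow induces it. Its probe lies at chr8:74845137-74845196 (mm9). The log2 levels were 3.51 at the lowest, 3.92 at the median and 4.34 at the highest in HFD_O3, against 2.60, 3.14 and 3.71 in HFD_Cont. Only HFD_Cont array 3 reached the HFD_O3 range. The difference was 0.77 ± 0.16, a fold of 1.70, with an adjusted p of 0.341 by limma. Klf4, a related factor probed at chr4:55540833-55540892, ran from 4.62 through 4.76 to 5.02 in HFD_O3 and from 3.74 through 4.24 to 4.52 in HFD_Cont. Here no array of one group reached the other. The Klf4 difference was 0.56 ± 0.14, a fold of 1.48, with an adjusted p of 0.353 by limma. The difference of Klf6, from the same family, was 0.48 ± 0.12, but only 0.15 within slide 2 against 0.53 and 0.85 within the others.

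Epha2 encodes a receptor tyrosine kinase for ephrin-A ligands, and its probe lies at chr4:140885139-140885198 (mm9). Its levels in HFD_O3 lay close together, from −0.84 through −0.65 to −0.45. In HFD_Cont they ran from −1.60 through −1.21 to −0.59, and array 3 alone lay inside the HFD_O3 range. The difference was 0.51 ± 0.11, with an adjusted p of 0.341 by limma. Without HFD_Cont array 3 it was 0.59, and Epha2 was then the only gene with an adjusted p under 0.05 by limma (0.0457).

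Plk3 and Apold1 had the widest differences of the 12. Plk3, a stress-responsive polo-like kinase probed at chr4:116801317-116801376, ran from −1.51 through −0.92 to 0.19 in HFD_O3 and from −2.58 through −2.03 to −0.65 in HFD_Cont. HFD_Cont array 3 again was the one array within the other group's range. The difference was 1.07 ± 0.26, a fold of 2.10, with an adjusted p of 0.353 by limma. Apold1, an early-response gene of endothelial cells probed at chr6:134936562-134936621, ran from −0.66 through −0.22 to 0.30 in HFD_O3. In HFD_Cont it ran from −1.69 through −1.27 to −0.13. Its difference was 0.92 ± 0.22, with an adjusted p of 0.353 by limma.

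The other higher genes were of several kinds. Per1, a repressor of the circadian clock that glucocorticoids also induce, differed by 0.81 ± 0.20. Its second kept probe gave −0.22, so the gene's probes disagreed. Hdc, which makes histamine from histidine, differed by 0.73 ± 0.17, with a level of −2.29 at the median of HFD_O3 and −3.04 in HFD_Cont. The second kept Hdc probe, a dimmer one, gave 0.14. Nod2, a cytosolic sensor of bacterial cell wall fragments, differed by 0.37 ± 0.08. Fosl2, a subunit of the AP-1 transcription factor, differed by 0.38 ± 0.09. Trmt1l, a relative of tRNA methyltransferases, differed by 0.22 ± 0.05, and all 3 of its probes had the same sign.

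The promoters of Klf2, Klf4, Epha2 and Dnajb1 are printed because these genes had small p-values and many rapidly induced genes are known to respond to cyclic AMP. They are a selection of 4 from the 12 higher genes with the smallest p. The windows of the other higher genes and of the lower genes are not given, so these 4 do not stand for them. Each line gives 250 bases before the start listed by RefSeq (GRCm38.p6), 5′ to 3′ on the gene's strand. Capitals mark TGACG, the core of the cyclic AMP response element, on either strand.
Klf2, chr8:72318812-72319061, plus strand: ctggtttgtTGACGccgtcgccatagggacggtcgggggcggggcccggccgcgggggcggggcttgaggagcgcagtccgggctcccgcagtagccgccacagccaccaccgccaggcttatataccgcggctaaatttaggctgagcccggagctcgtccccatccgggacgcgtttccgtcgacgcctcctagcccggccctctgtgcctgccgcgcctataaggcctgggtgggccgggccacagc
Klf4, chr4:55532476-55532725, minus strand: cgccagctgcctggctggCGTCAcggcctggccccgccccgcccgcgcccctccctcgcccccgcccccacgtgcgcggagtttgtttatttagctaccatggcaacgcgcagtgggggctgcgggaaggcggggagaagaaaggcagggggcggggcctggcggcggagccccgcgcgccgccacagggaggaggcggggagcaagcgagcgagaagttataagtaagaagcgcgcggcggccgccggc
Epha2, chr4:141300971-141301220, plus strand: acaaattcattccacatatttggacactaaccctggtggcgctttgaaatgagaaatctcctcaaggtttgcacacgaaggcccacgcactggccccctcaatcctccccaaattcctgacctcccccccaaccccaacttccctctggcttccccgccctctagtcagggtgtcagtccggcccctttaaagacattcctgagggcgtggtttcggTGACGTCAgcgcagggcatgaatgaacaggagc
Dnajb1, chr8:83607925-83608174, plus strand, the first of 2 listed starts: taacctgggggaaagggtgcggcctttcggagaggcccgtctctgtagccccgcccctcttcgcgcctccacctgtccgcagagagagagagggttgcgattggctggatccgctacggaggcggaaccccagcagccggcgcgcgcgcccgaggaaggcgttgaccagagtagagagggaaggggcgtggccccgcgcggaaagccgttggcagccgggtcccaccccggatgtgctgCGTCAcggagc
The core begins 241 bases before the Klf2 start, 232 before the Klf4 start and 11 before the first Dnajb1 start. The window of the second Dnajb1 start, not printed, held 0 cores. In Epha2 both strands match where 2 cores overlap, which makes the full element TGACGTCA, 33 bases before the start. The core was found in 17.8% and the full element in 1.55% of 32851 promoter windows of the same length. Counted by gene, 19.8% of 27025 genes held a core, against 15 of the 22 immediate early genes with an entry and 13 of the 24 heat shock genes with one. The pair GAANNTTC of the heat shock element was found in 6.69% of all windows. None of the windows of Klf2, Klf4, Epha2 or Dnajb1 held it. By gene, it was found in 7.73% of the 27025, against 3 of the 22 immediate early genes and 9 of the 24 heat shock genes. A match is only a description of the letters.

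The genes with the smallest p on the lower side shared no list. Their adjusted p ranged from 0.341 to 0.452 by limma, and they too are given as values. Mfap3l, a membrane protein probed at chr8:63155465-63155523, ran from 1.12 through 1.21 to 1.42 in HFD_O3 and from 1.43 through 1.80 to 2.21 in HFD_Cont. The groups did not overlap, and the spread in HFD_O3 was the smaller. The difference was −0.58 ± 0.12, with an adjusted p of 0.341 by limma. The STD_Cont mean was 1.64 ± 0.32 (SD, n = 8), between the 2 high fat groups and nearer to HFD_Cont.

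Fbxw7, the substrate-binding subunit of an SCF ubiquitin ligase, is probed at chr3:84783017-84783076. It ran from 2.90 through 3.04 to 3.15 in HFD_O3 and from 3.12 through 3.24 to 3.37 in HFD_Cont. Each group reached slightly into the other's range. The difference was −0.21 ± 0.05, and both kept probes had the same sign. Its STD_Cont mean of 2.97 ± 0.08 (SD, n = 8) was on the HFD_O3 side.

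Cacna2d4 encodes an auxiliary subunit of voltage-gated calcium channels and is probed at chr6:119251360-119251419. Its levels were spread widely, from −3.0 through −2.17 to −1.25 in HFD_O3 and from −1.96 through −1.15 to −0.09 in HFD_Cont. The difference was −1.11 ± 0.25, a fold of 0.46. Within slides it was −0.39, −1.83 and −1.26. Aldoc, the aldolase C of glycolysis probed at chr11:78140198-78140257, differed by −0.42 ± 0.09. It ran from −2.08 through −1.75 to −1.39 in HFD_O3 and from −1.53 through −1.38 to −1.11 in HFD_Cont.

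Panx1 forms channels that release ATP from cells, and is probed at chr9:14810250-14810309. It ran from 1.81 through 2.39 to 2.66 in HFD_O3 and from 2.38 through 3.06 to 3.55 in HFD_Cont. The difference was −0.63 ± 0.17, and the STD_Cont mean of 2.46 ± 0.41 (SD, n = 8) was on the HFD_O3 side. Rap1gap2, which switches off the small GTPase Rap1, differed by −0.47 ± 0.11. Tox4, a DNA-binding subunit of a phosphatase complex, differed by −0.55 ± 0.13, and its second kept probe gave 0.09. Gnb5, a G protein beta subunit, differed by −0.38 ± 0.09. Pstk, a kinase in the synthesis of selenocysteine tRNA, differed by −0.17 ± 0.04, and Rsph1, of the radial spokes of cilia, by −0.52 ± 0.14. Mapre2, which binds microtubule ends, differed by −0.24 ± 0.06, but its 4 kept probes ran from −0.35 to 0.15. Ifna15, of the interferon alpha family, differed by −0.52 ± 0.14 with only 3 of 8 HFD_O3 arrays well above background against 7 of 8 HFD_Cont arrays. Of the high fat groups, Ifna15 passed the detection filter only through HFD_Cont. Its near-identical relatives could share the probe.

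**Figure D2:**
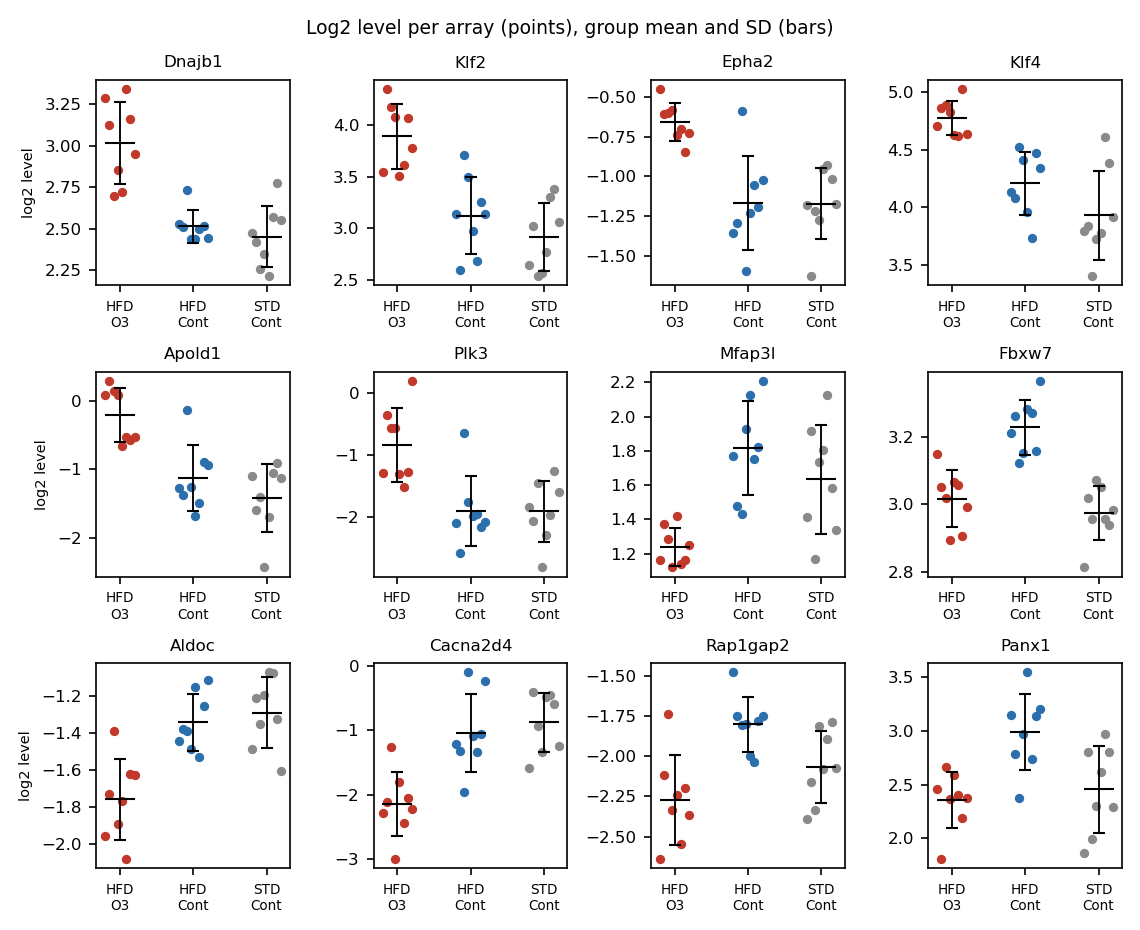
Each panel shows 1 gene, with the log2 level of each array as a point for HFD_O3, HFD_Cont and STD_Cont (8 arrays each) and bars for the group mean and SD. In the panels of Dnajb1, Klf2, Epha2, Plk3 and Apold1, 1 HFD_Cont array (array 3) lies near the HFD_O3 arrays, while the Klf4 and Mfap3l groups do not overlap.

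All 24 of these genes kept their sign within each slide and without HFD_O3 arrays 1 and 7. The slides carried 3, 2 and 3 HFD_Cont arrays and 3, 3 and 2 HFD_O3 arrays. Within the slides, Trmt1l differed by 0.24, 0.21 and 0.23, Rap1gap2 by −0.49, −0.47 and −0.42 and Tox4 by −0.56, −0.61 and −0.51. Since these genes were chosen by their p over the same arrays, the agreement of signs is a description.

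**Figure D3:**
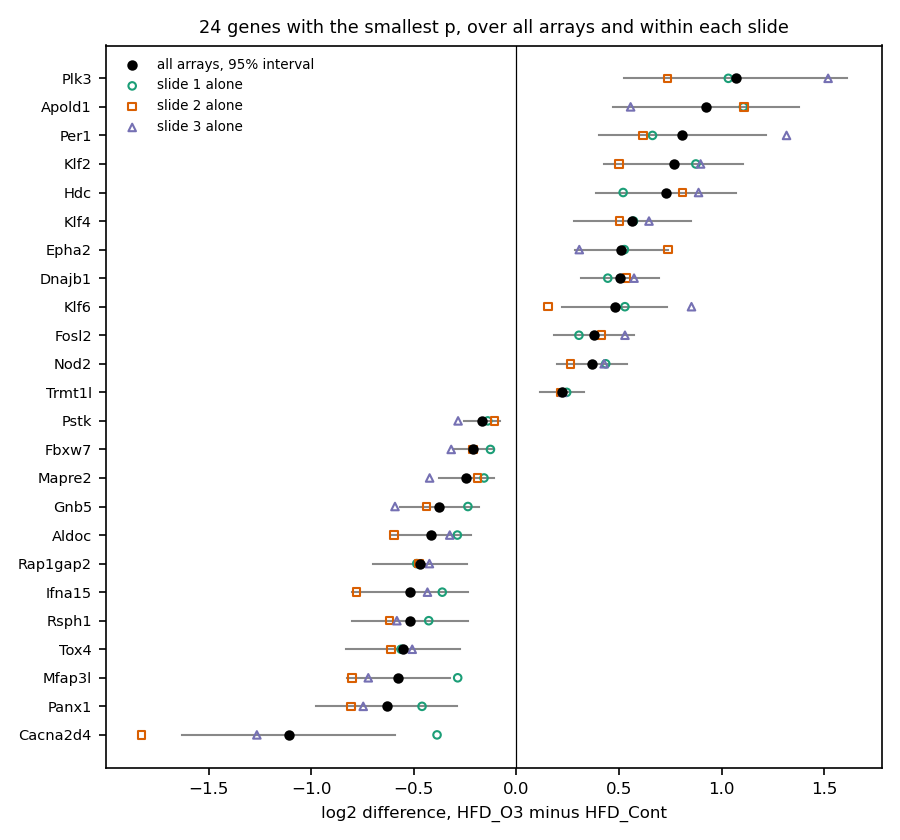
For each of the 24 genes with the smallest p, the black point is the log2 difference of HFD_O3 minus HFD_Cont over all arrays with its 95% confidence interval, and the open symbols are the differences within slides 1, 2 and 3. Every symbol lies on the same side of 0 as the black point, and Cacna2d4 spreads the most, from −1.83 to −0.39.

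The immediate early list, 26 measured of 28 written, had a median difference of 0.30, against −0.01 over all names. Of its members, 23 had a positive and 3 a negative difference. At an unadjusted p under 0.05, 8 were higher and 0 lower (background 2.69% and 4.4%), and 0 passed after adjustment over all names by limma. The same background applies to the counts of every other list, and its split between higher and lower moved with the scaling. The 8 were Klf2, Klf4, Fosl2, Klf6, Maff (0.49 ± 0.21), Nr4a2 (0.61 ± 0.28), Myc (0.33 ± 0.16) and Junb (0.34 ± 0.16). The best-known members varied widely between arrays. Fos, a subunit of AP-1, differed by 0.42 ± 0.44, Egr1, a zinc finger factor, by 0.38 ± 0.45, and Atf3, a stress factor, by 0.44 ± 0.52. Nr4a1, an orphan nuclear receptor induced by exercise, differed by 0.01 ± 0.13. The list median was 0.29, 0.24 and 0.19 within the slides, 0.23 without HFD_O3 arrays 1 and 7 and 0.19 without HFD_O3 array 2. The mean log2 level of the list ran from 1.89 through 2.15 to 2.45 in HFD_O3 and from 1.57 through 1.81 to 2.45 in HFD_Cont. HFD_Cont arrays 3 and 7, at 2.45 and 2.25, lay in the upper part of the HFD_O3 range, and the other 6 lay at 1.91 or below.

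The heat shock list had a median of 0.06 over 30 of 30 members, with 3 higher and 0 lower at an unadjusted p under 0.05. Besides Dnajb1 these were Dnaja1 (0.19 ± 0.07), another Hsp40 co-chaperone, and Hspb1 (0.22 ± 0.10), a small heat shock protein. The other 2 kept probes of Dnaja1, both dim, gave 0.05 and −0.13. The inducible Hsp70 genes Hspa1a and Hspa1b, whose sequences are nearly identical, differed by 0.52 ± 0.39 and 0.58 ± 0.41. Their regulator Hsf1 differed by −0.02 ± 0.07. The mitochondrial chaperonins Hspd1 and Hspe1 differed by 0.06 ± 0.04 and 0.01 ± 0.05.

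Glucocorticoid-induced genes had a median of 0.25 over 22 of 23 members, with 3 higher and 0 lower at an unadjusted p under 0.05. These were Per1, Pdk4 (0.33 ± 0.10), which turns off pyruvate dehydrogenase, and Errfi1 (0.32 ± 0.10), a brake on the EGF receptor whose second kept probe gave −0.10. The list median was 0.08 and −0.06 within slides 1 and 2 and 0.70 within slide 3, and 0.15 without HFD_O3 array 7. Fkbp5, a co-chaperone of the glucocorticoid receptor, ran from 2.73 through 3.58 to 5.23 in HFD_O3 and from 2.88 through 3.49 to 4.03 in HFD_Cont. HFD_O3 arrays 2, 7 and 8, at 4.69, 5.23 and 4.97, were above every HFD_Cont array. Array 1 was below every HFD_Cont array, and the other 4 were within their range. Trim63, a ubiquitin ligase of muscle atrophy, was likewise highest in HFD_O3 array 7, at 8.61 against a highest HFD_Cont value of 6.97, and its difference was 0.48 ± 0.25. Fbxo32, the other well-known atrophy ligase, differed by −0.02 ± 0.14. Of the 32 measured genes of atrophy and proteolysis, 4 were higher and 1 lower at an unadjusted p under 0.05. The median was 0.06, and it was 0.10 without HFD_O3 array 1 and 0.02 without array 7.

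No gene that handles polyunsaturated fatty acids passed the adjusted threshold. The desaturation and elongation list had a median of 0.00 over 20 of 24 members, with 2 higher and 1 lower at an unadjusted p under 0.05. Fads2, the first desaturase of omega-3 synthesis, differed by −0.15 ± 0.13, with a 95% interval of −0.41 to 0.11 over 7 HFD_O3 arrays, its spot on array 1 being left out. Fads1, the next desaturase, differed by −0.21 ± 0.26 (interval −0.75 to 0.33), and its 2 kept probes differed in sign. Elovl5, an elongase of polyunsaturated chains, differed by 0.02 ± 0.07 (interval −0.12 to 0.16). The higher members were the acyl-CoA thioesterases Acot1 (0.78 ± 0.29) and Acot2 (0.50 ± 0.18), known PPAR target genes, and the lower one was the elongase Elovl1 (−0.16 ± 0.06). The second kept Elovl1 probe gave 0.0006. Acot1 differed by −0.02 within slide 1, 1.08 within slide 2 and 1.70 within slide 3.

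The eicosanoid and resolvin list, which holds the enzymes and receptors of signalling lipids, had a median of 0.00 over 27 of 36 members. At an unadjusted p under 0.05, 1 was higher and 2 were lower. The prostaglandin receptors Ptger4 and Ptgir differed by 0.51 ± 0.20 and −0.25 ± 0.09. Alox5, the lipoxygenase that starts leukotriene synthesis, differed by −0.63 ± 0.24, with 4 of 8 HFD_O3 arrays well above background against 8 of 8 HFD_Cont arrays. Of the high fat groups, it passed the detection filter only through HFD_Cont, so its difference is against partly undetected values. Alox15, Hpgds, Ptger1, Ptger2 and Ffar1 were well above background on none of the 16 arrays.

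Fatty acid uptake and oxidation genes had a median of 0.04 over 44 of 44 members, with 6 higher and 0 lower at an unadjusted p under 0.05. The 6 were Pdk4, Acot2, Acot1, Acadsb (0.14 ± 0.06), Ucp3 (0.36 ± 0.16) and Cd36 (0.23 ± 0.10). Pdk4 ran from 8.78 through 9.06 to 9.57 in HFD_O3 and from 8.34 through 8.79 to 9.16 in HFD_Cont, with an adjusted p of 0.557 by limma. The groups overlapped, and its STD_Cont mean was 9.32 ± 0.15 (SD, n = 8), above both high fat means. Its difference was 0.18, 0.32 and 0.67 within the slides. Ucp3, the muscle uncoupling protein, had medians of 1.74 and 1.41, and Cd36, the fatty acid transporter, 4.74 and 4.51. Cpt1b, which admits fatty acids to mitochondria, differed by 0.04 ± 0.06. The regulators Ppara, Ppard, Pparg and Ppargc1a differed by −0.12 ± 0.14, −0.04 ± 0.07, −0.07 ± 0.15 and −0.18 ± 0.25. The list median was −0.11 within slide 1, 0.19 within slide 2 and 0.07 within slide 3.

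Other metabolic lists lay near the background. Respiratory chain subunits had a median of −0.03 over 64 of 65 members, with 0 higher and 1 lower at an unadjusted p under 0.05, and every member's 95% interval lay between −1 and 1. Glucose uptake and glycolysis genes had a median of −0.03 over 36 of 36 members, and insulin and growth factor signalling genes −0.01 over 37 of 37. Slc2a4, the insulin-regulated glucose transporter, differed by −0.05 ± 0.05, Hk2, the muscle hexokinase, by −0.07 ± 0.08, and Irs1, the insulin receptor substrate, by −0.05 ± 0.14. Cytosolic ribosomal proteins had a median of −0.02 over 47 of 48, with 0 higher and 0 lower.

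**Figure D4:**
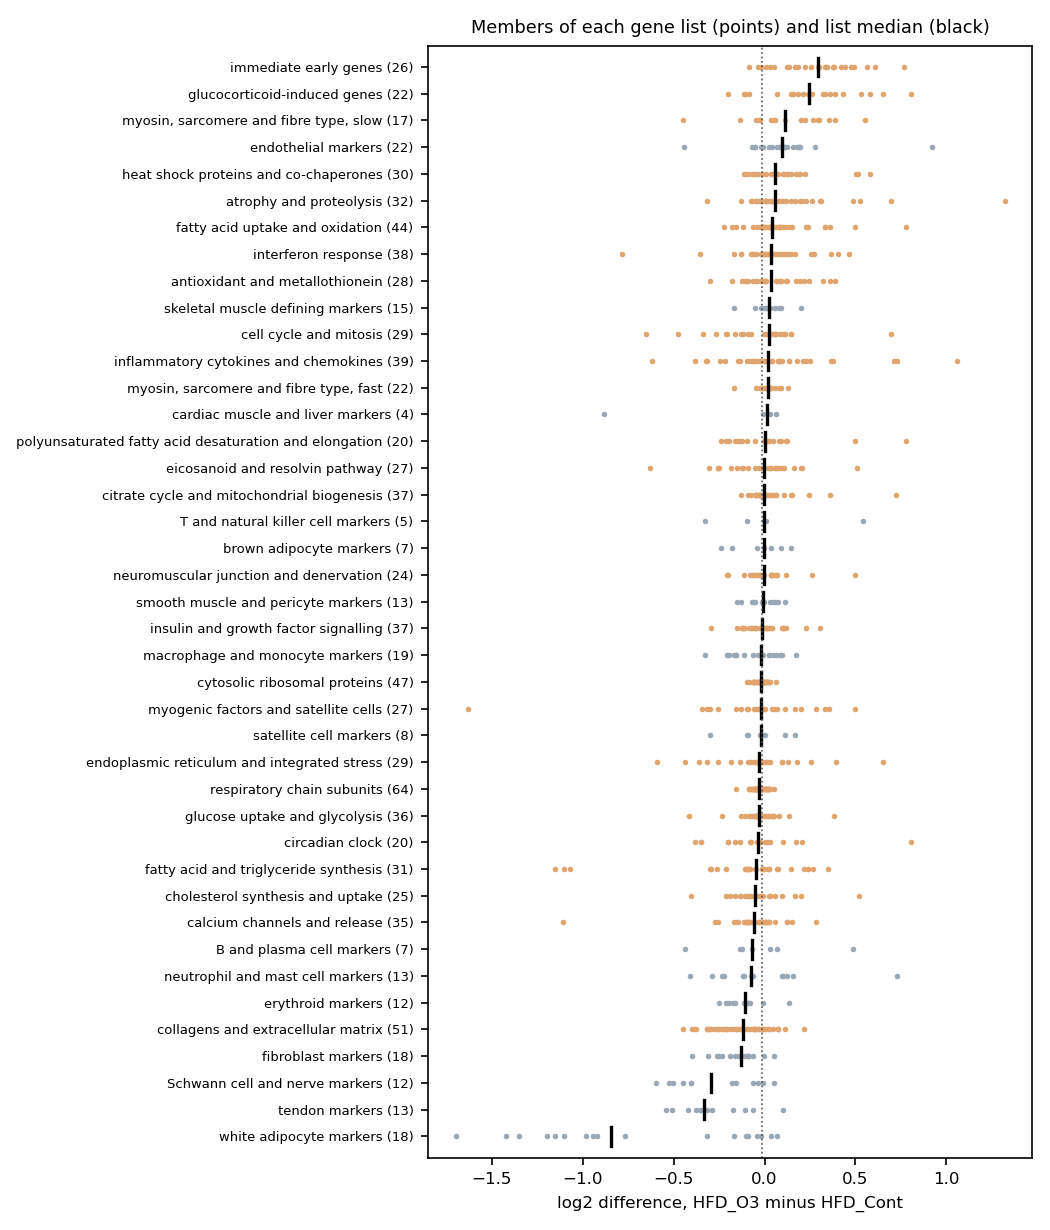
Each row is 1 of the 41 gene lists with the number of members measured, points are the members' log2 differences of HFD_O3 minus HFD_Cont, and black bars are list medians (orange: functional lists, grey: cell type markers, dotted line: median of all names, −0.01). The medians run from −0.85 for white adipocyte markers to 0.30 for immediate early genes.

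Inflammatory cytokine and chemokine genes had a median of 0.02 over 39 of 50 members, with 6 higher and 2 lower at an unadjusted p under 0.05. Besides Nod2 and Hdc, the higher ones included Cx3cl1 (0.38 ± 0.11), a membrane-bound chemokine, Il6 (0.71 ± 0.26), a cytokine that contracting muscle also makes, Cxcl13 (1.06 ± 0.48) and Nfkb2 (0.18 ± 0.08). Cxcl13 was well above background on only 3 HFD_O3 arrays and 1 HFD_Cont array. It passed the detection filter only through STD_Cont, so its difference, though counted among the 6, is between mostly undetected values. The lower ones were Cx3cr1 (−0.62 ± 0.22), the receptor of Cx3cl1, and Tnfaip3 (−0.38 ± 0.13), an inhibitor of NF-kappaB. Cx3cr1 was well above background on 3 HFD_O3 and 6 HFD_Cont arrays. Of the high fat groups, it passed the detection filter only through HFD_Cont, so its difference is against mostly undetected values. Ccl2, the monocyte chemokine, differed by −0.22 ± 0.40. Macrophage and monocyte markers had a median of −0.02 over 19 of 20, with 0 higher and 0 lower. The interferon response had a median of 0.04 over 38 of 40, with 1 higher and 1 lower.

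Collagen and extracellular matrix genes had a median of −0.12 over 51 of 54 members. At an unadjusted p under 0.05, 0 were higher and 8 lower (background 2.69% and 4.4%). The 8 were the fibrillar collagen genes Col1a1 (−0.40 ± 0.17), Col1a2 (−0.31 ± 0.15), Col5a1 (−0.30 ± 0.13) and Col5a2 (−0.38 ± 0.14), with Col12a1 (−0.45 ± 0.17), Col6a2 (−0.38 ± 0.17), Fn1 (−0.26 ± 0.12) and Timp2 (−0.30 ± 0.11). The sign of the list median held within each slide (−0.15, −0.08 and −0.20) and without HFD_O3 arrays 1 and 7 (−0.09). Markers of connective tissue cells are given beside it, and their part in the result was not tested. The lists overlap: the fibroblast list shares Col1a1, Col1a2, Col3a1, Lum and Dcn with the matrix list, and the tendon list shares Fmod. Fibroblast markers had a median of −0.13 over 18 of 18, with 0 higher and 3 lower at an unadjusted p under 0.05. The 3 were Col1a1 and Col1a2, counted above, and Cd34 (−0.15 ± 0.07), whose second kept probe gave 0.03. Without HFD_O3 array 1 the median of the fibroblast markers was −0.08. The summed level of the fibroblast markers, in multiples of the 75th percentile, was 421 to 592 in HFD_O3 and 460 to 649 in HFD_Cont. Tendon markers had a median of −0.33 over 13 of 15, with 0 higher and 2 lower, and −0.20 without HFD_O3 arrays 1 and 7. Their summed level was 26.8 to 38.7 in HFD_O3 and 34.7 to 50.1 in HFD_Cont. Scx, the tendon transcription factor, differed by −0.51 ± 0.20 and Thbs4, a tendon matrix protein, by −0.33 ± 0.13. In bulk RNA, fewer cells of a type and less RNA per cell cannot be told apart.

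White adipocyte markers had the lowest list median, −0.85 over 18 of 18 members, with 0 higher and 0 lower at an unadjusted p under 0.05. The median was −0.50 without HFD_Cont array 4 and −0.55 without HFD_O3 arrays 1 and 7. Adipoq, the adipokine adiponectin, ran from −0.55 through 0.64 to 5.01 in HFD_O3 and from 0.47 through 2.88 to 4.72 in HFD_Cont. HFD_O3 arrays 2, 3 and 7, at −0.55, −0.15 and −0.24, lay below every HFD_Cont array, and HFD_O3 array 4 lay above them all. The remaining HFD_O3 arrays lay within the HFD_Cont range. The difference was −1.42 ± 0.80 with an adjusted p of 0.732 by limma. The mean log2 level of the list ran from 0.03 through 0.41 to 2.57 in HFD_O3 and from 0.04 through 1.50 to 3.01 in HFD_Cont. HFD_O3 arrays 4 and 5 and HFD_Cont arrays 4 and 5 held the most. The summed level was 531 to 961 in HFD_O3 and 641 to 987 in HFD_Cont, and no marker failed detection on all 16 arrays. The sum came mostly from Car3, Gpd1 and Fabp4, which differed by only −0.17, −0.04 and 0.07, so it says little about the other markers. Scd1, a desaturase abundant in fat tissue, differed by −1.07 ± 0.68, from 0.14 through 1.13 to 4.64 in HFD_O3 and from 0.48 through 2.70 to 4.83 in HFD_Cont. Genes of fatty acid and triglyceride synthesis had a median of −0.05 over 31 of 31, with 1 higher and 1 lower. With the adipocyte level as a covariate the collagen median was −0.06 and the immediate early median 0.23.

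Fibre type genes varied widely between arrays of the same group. Slow fibre genes had a median of 0.11 over 17 of 17 members, with 0 higher and 0 lower at an unadjusted p under 0.05. Within slides the median was −0.69, 1.64 and −0.24. Myh7, the slow myosin heavy chain, ran from 6.21 through 6.99 to 7.69 in HFD_O3 and from 1.91 through 6.87 to 8.52 in HFD_Cont. HFD_Cont array 4, at 1.91, lay far below all others, and the next lowest was 6.15. Without it the list median was −0.26, so its sign rested on that array, and over all fits that left out 1 array it ran from −0.26 to 0.36. Fast fibre genes had a median of 0.02 over 22 of 22, and Myh4, the fastest myosin, differed by 0.03 ± 0.12.

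Endothelial markers had a median of 0.10 over 22 of 22 members, with 4 higher and 1 lower at an unadjusted p under 0.05. The higher ones were Apold1, Esam (0.19 ± 0.08), Robo4 (0.19 ± 0.08) and Egfl7 (0.16 ± 0.07), and the lower one was Aplnr (−0.44 ± 0.17), the apelin receptor. Their summed level was 265 to 307 in HFD_O3 and 229 to 281 in HFD_Cont. It stands beside Klf2, Klf4 and Apold1, which endothelial cells also express, and its part in their differences was not tested. Pecam1 and Cdh5, which define the endothelium, differed by 0.11 ± 0.07 and 0.13 ± 0.07. Kdr, Erg and Flt1, other markers on the list, differed by −0.06 ± 0.10, −0.05 ± 0.17 and 0.02 ± 0.06. Of the 22 markers, 16 had a positive and 6 a negative difference. Schwann cell markers had a median of −0.29 over 12 of 17, with 0 higher and 1 lower, and medians of 0.31, −0.32 and −0.81 within slides and −0.16 without HFD_Cont array 8. Erythroid markers had a median of −0.11 over 12 of 17, with 0 higher and 1 lower, and −0.17 to −0.07 over fits that left out 1 array. The lower one was the ankyrin gene Ank1 (−0.21 ± 0.08), not a globin gene.

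**Figure D5:**
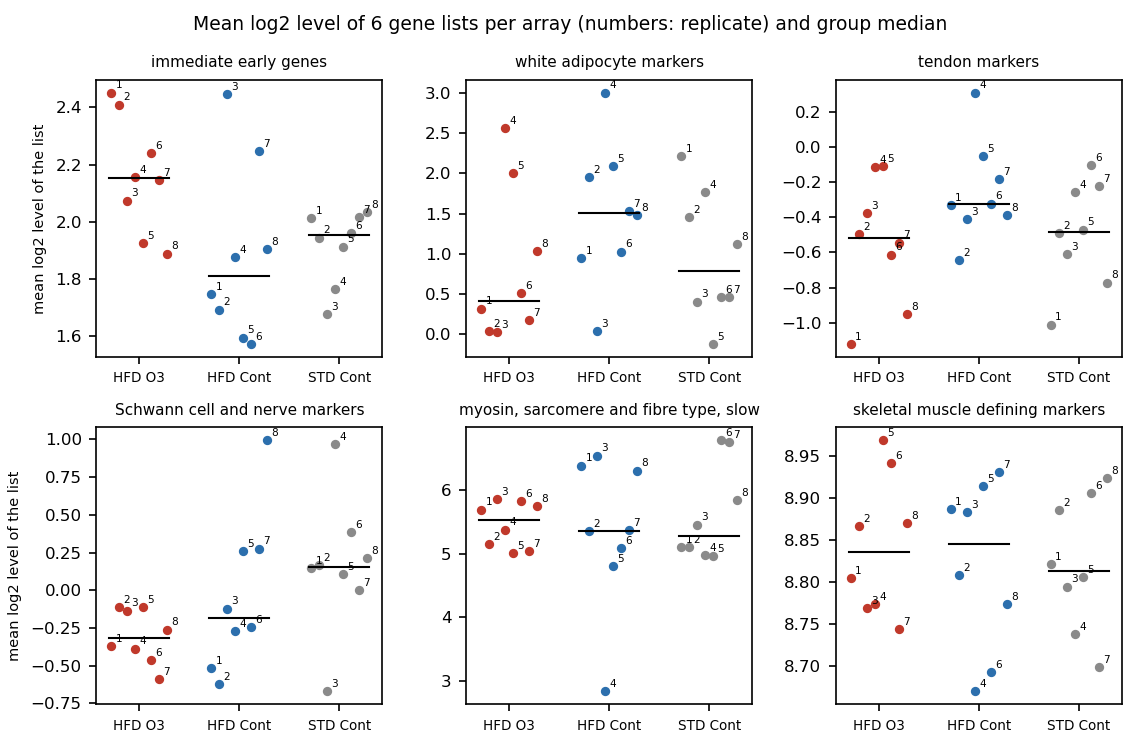
Each point is the mean log2 level of 1 list on 1 array, numbered by replicate, in HFD_O3, HFD_Cont and STD_Cont, with a line at the group median. White adipocyte markers spread from 0.03 to 2.57 in HFD_O3 and from 0.04 to 3.01 in HFD_Cont, and HFD_Cont array 4 is far below the rest for slow fibre genes.

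The spread between arrays was larger in HFD_O3 for most names, and this was not tested. The median SD over names was 0.19 in HFD_O3 and 0.15 in HFD_Cont, and the SD was larger in HFD_O3 for 67.0% of names. Without HFD_O3 array 1 this share was 55.2%, without array 7 it was 62.6%, and without both it was 48.1%. Since arrays 1 and 7 had been singled out and no HFD_Cont array was left out, a fall in this share was built in. Without HFD_O3 arrays 1 and 7, 0 names passed an adjusted p of 0.05 by limma, and 492 were higher and 716 lower at an unadjusted p under 0.05. Detection added little. By the software's mark for spots well above background, 12 probes were seen on at least 6 HFD_O3 and at most 2 HFD_Cont arrays, and 31 the other way round.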

How the data were processed

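Total RNA of mouse skeletal muscle, 8 samples per group, was hybridised to one-colour Agilent arrays. Per the file headers, Agilent Feature Extraction 10.10.1.1 read the images, and the deposited scanner files hold spot intensity, of which the background-subtracted processed signal was used. The authors' deposited value table is in log2 units; the submitters' processing notes name limma, and its probe filter is not given in the sources used here. Flagged spots and controls were left out, spots of a probe averaged, and log2 intensity reduced by each array's 75th percentile. Probes well above background on at least 6 of 8 arrays of a group were kept (29246 of 56605), and each of 19938 names took its probe of highest mean. Symbols came from RefSeq for 32994 probes, otherwise from the array design.

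All 24 arrays were fitted with limma 3.58.1 in R 4.3.3 (lmFit, eBayes, two-sided, no block), with adjustment over all names at 0.05. Array measures were compared by exact permutation. Where fewer than 5 genes with a plain symbol passed in a direction, the 12 with the smallest p in that direction were named; 3 members of each list with the smallest p and 25 set genes could be given as values. Further list members with an unadjusted p under 0.05, and well-known members, were named after their values were seen. The members and gene lists were chosen with earlier results of these data known, so no list is independent evidence. The fit was tested on simulated data. The limma p-values set each difference against the spread between samples within these groups. Spread beyond these samples is not covered. Alternatives covered background correction, scaling, filters, probe choice, slide, row and replicate blocks, weights, adipocyte level and arrays left out. Promoter windows are RefSeq's (GRCm38.p6).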

Additional observations from a re-analysis of the deposited data

Results flagged for a closer look

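Of 108 sets of values examined, 107 of 8 arrays and 1 of 7 (Fads2 in HFD_O3), 10 held an outlying array. The sets were the 24 genes with the smallest p, 25 set genes and 5 array measures, in each high fat group. An array was outlying where its gap to its nearest neighbour, as a share of the range, exceeded Dixon's 95% critical value. Chance flags about 1 in 20 such sets, and the genes share arrays. HFD_Cont array 3 was the highest of its group for Dnajb1 (2.73 against 2.53 for the next), Plk3 (−0.65 against −1.75), Cd36 (5.04 against 4.61) and Fads2 (−1.05 against −1.69). HFD_O3 array 7 was the highest for Cd36 (5.28 against 4.85) and Fbxo32 (5.76 against 5.15). HFD_Cont array 4 was the lowest for Myh7 (1.91 against 6.15), and the highest for Ifna15 (−3.06 against −3.41) and on the third principal component (28.1 against 0.40). HFD_Cont array 5 was the lowest for Fosl2 (0.64 against 0.92).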

How the results depend on the processing

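With 8 arrays per group, the number of arrays and the probes near background set the precision; 97.0% of names had a 95% interval inside a 2-fold change. The count of 0 genes past the threshold was the same under 22 of 22 other settings, the deposited table included, and in 23 of 24 leave-one-out fits, a range of 0 to 1. The exception was the fit without HFD_Cont replicate 3, with 1 gene, Epha2 (adjusted p 0.0457 by limma). The smallest adjusted p ran from 0.0457 to 0.464 over the fits that left out 1 array, and the count at an unadjusted p under 0.05 from 1047 to 1890. The replicate block gave 0 genes (smallest adjusted p 0.208 by limma). The labels do not say whether a replicate number pairs samples, and low correlations could not show that it does not. Deviations of same-numbered arrays correlated at −0.14 to 0.33, over 0.1 in 2 of 8 pairs. Of the 8 HFD_O3 arrays, 2 correlated best with their own number. The 24 genes with the smallest p had the same sign under every setting run. They were chosen by their p over the same arrays, so this is a description and not evidence of stability. Of the 124 genes set to be given as values, 46 changed sign under some setting, 16 of them outside the fits within a single slide. Of the 41 list medians, 32 changed sign under some setting, 22 of them outside those fits; the medians of immediate early genes, heat shock genes, collagens, fibroblast and tendon markers did not, and those of slow fibre, fatty acid oxidation and glucocorticoid genes did. That of white adipocyte markers did only with the adipocyte level itself as a covariate.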

Other observations

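The first principal component of the 16 high fat arrays ran with the white adipocyte level rather than with the lineage alone. The 5 arrays with an adipocyte score over 0.5 were HFD_Cont 2, 4 and 5 and HFD_O3 4 and 5, and they had the 5 lowest scores on that component, at −17.7, −27.2, −21.6, −20.2 and −16.0; the next lowest was −8.21 in HFD_Cont 7. Without the adipocyte-rich arrays, STD_Cont ones included, 488 names were higher and 791 lower at an unadjusted p under 0.05, and 0 passed the adjusted threshold by limma.

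Transcripts of myogenesis and proliferation gave a few further values. Of the 27 measured genes of myogenic factors and satellite cells, 2 were higher and 3 lower at an unadjusted p under 0.05. Myog, the differentiation factor, differed by 0.50 ± 0.20, and Pax7, the satellite cell factor, by −0.30 ± 0.10. Of the 29 measured cell cycle genes, 2 were higher and 4 lower. Tpx2, a mitotic spindle protein, differed by −0.65 ± 0.22, and Cdkn1a, an inhibitor of cell cycle kinases, by 0.70 ± 0.27, with 1.76 within slide 3 against 0.61 and 0.06 within the others.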
